A study of Mus musculus with 18 samples.

Results

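The complement components and regulators C1qa, C1qb, C1qc, C3, C4b, C1ra, Cfb, Serping1 and Cd55 were followed through mouse skin in the first days of stretch-mediated expansion. The 9 genes were taken by their symbols from the 32285 genes of the count matrices, and each symbol was found once in all 10 matrices. The libraries hold RNA of single living (DAPI-negative) skin cells. All animals, controls included, were operated on: the back was cut near the tail and a path was opened beneath the skin as far as the neck. Only the expanded animals were given the expander, a hydrogel fixed there by stitches, so a wound is common to both arms. Skin was collected 1, 2 or 4 days later. Days 1 and 2 each had 2 sequencing rounds with a control and an expanded library, and day 4 had 1 round. The control mice of a sequencing round shared 1 tube and the expanded mice another, so a library is a pool of mice and the spread between libraries is not the spread between mice. The labels give no strain, sex or age. Levels below are CPM, the UMIs (unique molecular identifiers, which count molecules) of a gene per 1000000 UMIs of the same cells in a library. The values of an arm stand in the order day 1 round 1, day 1 round 2, day 2 round 1, day 2 round 2 and day 4, and changes are log2 ratios of expanded over control with their standard error (SE) and the p of edgeR's quasi-likelihood test, adjusted over all genes tested in the class. The labels do not say that pools of different rounds are independent groups of animals, so p-values measure the spread between these pools. Those of the fit per mouse take mice of shared pools as replicates instead.

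Complement is a set of proteins that tag microbes, debris and dying cells. C1q, built from the chains of C1qa, C1qb and C1qc, binds a target in the classical pathway and carries the protease C1r (C1ra), after which C4 (C4b) and then C3 are cleaved and deposited. Factor B (Cfb) joins deposited C3 in the alternative pathway and forms the convertase that cleaves more C3. The C1 inhibitor (Serping1) blocks C1r and C1s, and the membrane protein CD55 (Cd55) takes convertases apart on the surface of the cells that carry it. Much complement of the blood comes from the liver, but macrophages and fibroblasts make components locally in tissues, and macrophages are a known source of C1q.

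The files' identifiers of all 9 genes matched the GENCODE M21 annotation of GRCm38 (mm10), the build the submitters' processing notes name. C1qb (chr4:136880129-136886187), C1qc (chr4:136889804-136893065) and C1qa (chr4:136895917-136898803) lie side by side on the minus strand of chromosome 4. C4b (chr17:34728380-34743882) and Cfb (chr17:34856374-34862518) lie near each other on chromosome 17, with C3 (chr17:57203970-57228136) on the same chromosome. C1ra is at chr6:124512405-124523443 on the plus strand, Serping1 at chr2:84765387-84775444 and Cd55 at chr1:130439027-130462744, both on the minus strand. RefSeq promoters (GRCm38.p6) were matched for 5 of the 9 genes, C1qb, C1qc, C3, C1ra and Cd55, and not for C1qa, C4b, Cfb and Serping1. The stretches before C1qb and C1qc are shown because these neighbours moved together in the data below, and that of C3 because its levels followed other cells. Each runs 5′ to 3′ on the minus strand up to the annotated start, with matches to the letters named after them in capitals.
C1qb (chr4:136886201-136886450): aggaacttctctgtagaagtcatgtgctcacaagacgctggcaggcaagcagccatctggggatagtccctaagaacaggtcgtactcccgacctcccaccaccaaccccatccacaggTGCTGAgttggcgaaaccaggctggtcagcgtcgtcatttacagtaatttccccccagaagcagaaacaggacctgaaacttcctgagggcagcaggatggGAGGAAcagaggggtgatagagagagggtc
C1qc (chr4:136893066-136893164): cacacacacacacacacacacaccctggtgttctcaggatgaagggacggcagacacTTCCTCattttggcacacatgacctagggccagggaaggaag
C3 (chr17:57228137-57228386): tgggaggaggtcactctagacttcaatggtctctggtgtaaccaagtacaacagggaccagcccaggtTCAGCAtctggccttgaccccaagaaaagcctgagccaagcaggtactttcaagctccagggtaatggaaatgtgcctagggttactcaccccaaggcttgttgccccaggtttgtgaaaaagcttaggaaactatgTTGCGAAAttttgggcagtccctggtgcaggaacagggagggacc
The letters searched on both strands were the PU.1 core GAGGAA, the Maf letters TGCTGA, the C/EBP form TTGCNNAA, and short forms of the NF-kB and IRF motifs. The PU.1 core stood once before C1qb and once, on the other strand, before C1qc, and 23.3% of all 32851 promoters in the table hold it within 250 bases before their start. The C1qc stretch holds 99 bases, fewer than the 250 of that share. The Maf letters stood once before C1qb and once, on the other strand, before C3 (16.1% of promoters), and the C/EBP form once before C3 (9.56%). Before Cd55, whose stretch is not shown, the Maf letters stood 2 times, once on each strand. The NF-kB form (1.21% of promoters) and the IRF form (2.98%) had no match before these genes. These are matches of letters, not sites shown to be bound.

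Of 55174 barcodes, 45551 cells were kept, 28581 control and 16970 expanded, with 17726739 to 75470722 gene UMIs in a library. Libraries shared at most 0.377% of the barcodes of the smaller library. Clustering without complement genes gave 49 clusters, of which 37 were named into 18 classes by marker genes that include no complement gene, and 12 clusters with 4851 cells stayed unnamed. The expanded library of day 1 round 1 stood apart from the other expanded libraries for several members. RNA in the fluid of the droplets was followed with the low levels of C1q, C4b and Serping1 in T cell-like cells, which are not known as a source of these, and with collagen and macrophage genes in the other classes.

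The members differed in the classes where they were highest (the heat map of levels by class). The mean over 10 libraries in macrophage or monocyte-like cells was 1348 ± 1009 CPM (SD, n = 10) for C1qa, and dendritic-like cells followed at 103 ± 94.4 CPM (SD, n = 10), with T cell-like cells at 20.1 ± 50.3 CPM (SD, n = 10). C1qb and C1qc had the same first and second class. C4b stood highest in Schwann-like cells at 375 ± 165 CPM (SD, n = 9), then in fibroblast-like cells at 225 ± 171 CPM (SD, n = 10) and melanocyte-like cells at 202 ± 102 CPM (SD, n = 8), and these spreads overlap. In control libraries alone the order of the first classes turns, with 362 ± 117 CPM (SD, n = 5) in fibroblast-like and 323 ± 132 CPM (SD, n = 4) in Schwann-like cells. C3 was at 99.5 ± 19.1 CPM (SD, n = 8) in neutrophil-like cells and 95.1 ± 71.6 CPM (SD, n = 10) in fibroblast-like cells. Macrophage or monocyte-like cells held 63.6 ± 34.8 CPM (SD, n = 10) of C3, and these are neighbours that do not differ beyond their spread. Serping1 was highest in fibroblast-like cells at 928 ± 225 CPM (SD, n = 10), followed by pericyte or smooth muscle-like cells at 568 ± 182 CPM (SD, n = 10).

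Cfb was at 120.3 ± 87.6 CPM (SD, n = 10) in fibroblast-like cells, with macrophage or monocyte-like cells at 64.8 ± 35.1 CPM (SD, n = 10) and blood endothelial-like cells at 56.9 ± 12.4 CPM (SD, n = 10) within the spread of the former. Fibroblast-like cells lead through the expanded libraries: in control libraries they held 50.4 ± 20.5 CPM (SD, n = 5), below macrophage or monocyte-like cells at 85.2 ± 22.4 CPM (SD, n = 5) and blood endothelial-like cells at 56.8 ± 17.7 CPM (SD, n = 5). C1ra was highest in fibroblast-like cells at 49.9 ± 11.1 CPM (SD, n = 10), ahead of pericyte or smooth muscle-like cells at 23.6 ± 11.7 CPM (SD, n = 10). Cd55 was highest in mast-like cells at 788 ± 281 CPM (SD, n = 8), far above fibroblast-like cells at 104 ± 50.6 CPM (SD, n = 10), which in turn lay close to lymphatic endothelial-like cells at 79.7 ± 17.9 CPM (SD, n = 10). T cell-like cells held 11.8 ± 8.28 CPM (SD, n = 10) for Serping1 and 7.17 ± 7.07 CPM (SD, n = 10) for C4b, a scale for the low values of these genes in other classes. Cd55 was at 9.45 ± 6.29 CPM (SD, n = 10) there, which is no such scale, since T cells are known to carry CD55. These levels between classes are descriptions without a test.

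**Figure D1:**
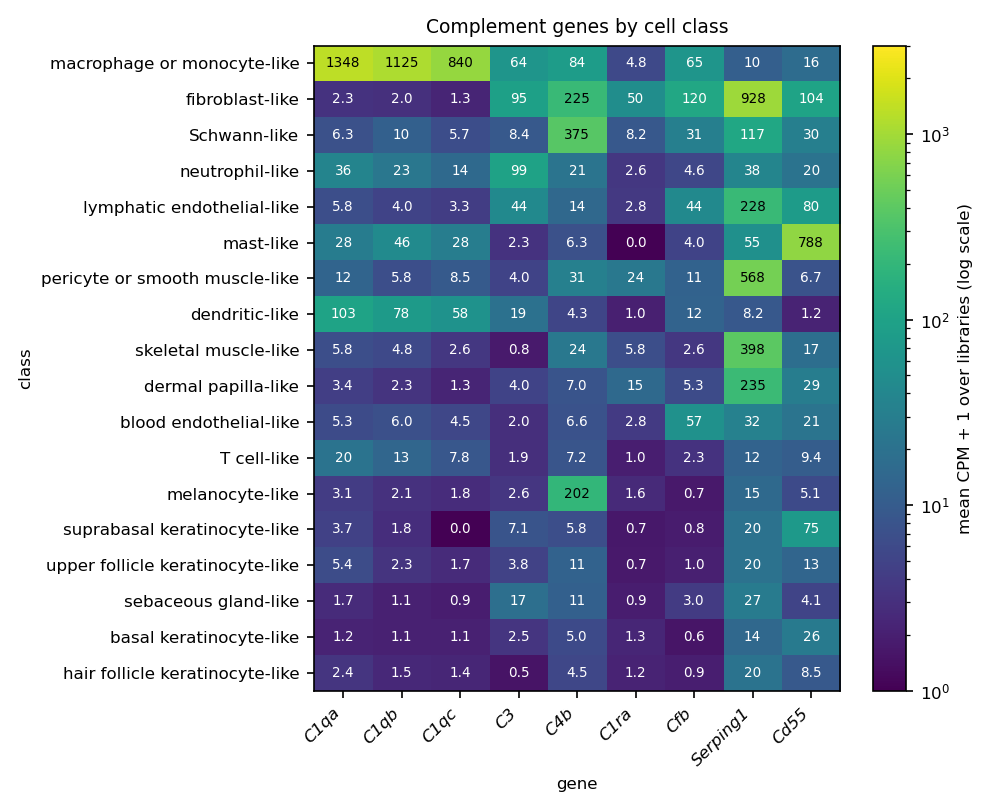
Mean CPM of each complement gene (columns) in each named cell class (rows) over the libraries with at least 20 cells of the class; numbers are CPM and the colour is a log scale of CPM + 1. The C1q genes peak in macrophage or monocyte-like cells and Serping1 in fibroblast-like cells, while Cd55 is highest in mast-like cells.

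The share of each gene's UMIs by class shows which cells carried the transcripts in a library. In control libraries, macrophage or monocyte-like cells held 82.8% ± 4.35 (SD, n = 5) of C1qa UMIs, and fibroblast-like cells held 86.4% ± 10.5 (SD, n = 5) of Serping1, 81.3% ± 7.09 (SD, n = 5) of Cd55, 80.9% ± 8.43 (SD, n = 5) of C4b and 74.1% ± 15.9 (SD, n = 5) of C3 UMIs. In expanded libraries the fibroblast share of C3 UMIs was 27.2% ± 18.1 (SD, n = 5), and macrophage or monocyte-like cells held 36.9% ± 25.7 (SD, n = 5) against 3.18% ± 1.41 (SD, n = 5) in control libraries. The fibroblast share of C4b UMIs was 33.1% ± 19.5 (SD, n = 5) in expanded libraries, with 15.5% ± 11.0 (SD, n = 5) in Schwann-like cells and 37.6% ± 12.8 (SD, n = 5) in unnamed clusters. For Cfb the fibroblast share was 62.7% ± 11.4 (SD, n = 5) in control and 55.6% ± 17.3 (SD, n = 5) in expanded libraries. A share moves with the number of cells of each class in a library, so a change in the share and a change in the level are separate measures.

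**Figure D2:**
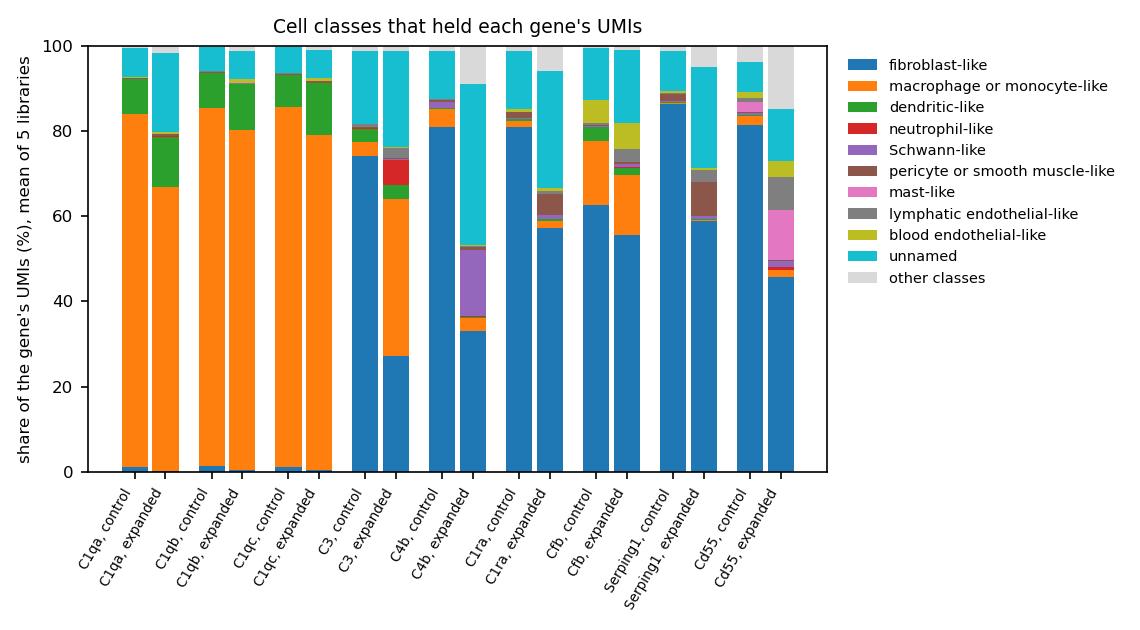
Share of each gene's UMIs (percent, vertical axis) held by the cell classes, as the mean of the 5 control or 5 expanded libraries; each bar is 1 gene in 1 arm. Fibroblast-like cells held 74.1% of C3 UMIs in control and 27.2% in expanded libraries, while the C1q genes stayed mostly in macrophage or monocyte-like cells.

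The genes whose mean levels over the 18 classes were most like a member's, by Pearson's r of log2(CPM + 1), are given without a test, since classes of 1 library share its depth. They were Pf4 (r = 0.955 for C1qb and r = 0.965 for C1qc) and Ms4a7 (r = 0.942, 0.947 and 0.959 for C1qa, C1qb and C1qc), with Nxpe5 first for C1qa (r = 0.956) and Capza2 among the 3 of each (r = 0.945, 0.942 and 0.940). For Serping1 they were Meg3 (r = 0.944), Bgn (r = 0.943) and Fbn1 (r = 0.942), and for C1ra Pth1r (r = 0.924), Pcolce (r = 0.919) and C1qtnf1 (r = 0.907). The best matches were weaker for Cfb (Slc7a7, r = 0.867), C4b (Ppp1r9a, r = 0.861), Cd55 (Itga2b, r = 0.807) and C3 (Xdh, r = 0.787). Bgn, Fbn1 and Pcolce encode proteins of the extracellular matrix or its processing, Pf4 and Ms4a7 are known from macrophages, and Capza2 encodes an actin capping subunit that most cells carry.

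Summed over all kept cells, expanded skin held less transcript of 8 of the 9 genes, and 0 of the 9 passed the test as higher. Cfb, the alternative pathway protease, was the exception, with a log2 ratio of 0.46 ± 0.20 (SE, adjusted p = 0.112). Of all 16525 genes tested, 13.9% were called lower (adjusted p under 0.05), and the members' median log2 ratio was -1.92 against 0.05 over all genes tested. C4b changed most of the 9, with a log2 ratio of -2.44 ± 0.44 (SE, adjusted p = 0.00571), from 251, 146, 236, 159.5 and 347 CPM in control and 112, 28.8, 46.7, 29.0 and 31.4 CPM in expanded libraries. C3 had a log2 ratio of -1.81 ± 0.23 (SE, adjusted p = 0.00209), Serping1 a log2 ratio of -1.76 ± 0.24 (SE, adjusted p = 0.00222) and Cd55 a log2 ratio of -1.98 ± 0.27 (SE, adjusted p = 0.00234), and the libraries of the arms did not overlap for these 4 genes. The share of all genes without overlap between the arms was not counted, here or in the classes and clusters below. The C1q genes had log2 ratios of -1.92 (C1qa), -2.03 (C1qb) and -1.93 (C1qc), and C1ra a log2 ratio of -1.33 ± 0.26 (SE, adjusted p = 0.00738). In a sum over cells, fewer cells of a type and less RNA per cell cannot be told apart, and expanded libraries held 163 to 898 fibroblast-like cells against 910 to 3651 in control libraries. Cfb was higher in 4 of 5 pairs, and without the day 4 pair it passed the test, with a log2 ratio of 0.70 (adjusted p = 0.0161). Without the expanded library of day 1 round 1, the 8 genes were called lower again, with a log2 ratio of -2.93 for C4b.

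The C1q genes fell in macrophage or monocyte-like cells. C1qa, the A chain, was at 2281, 1942, 2429, 1612 and 2410.2 CPM in control libraries and at 1948, 366, 44.7, 123 and 324 CPM in expanded libraries. The expanded library of day 1 round 1 lay within the control range, and the other 4 expanded libraries lay below every control library. The model gave a log2 ratio of -2.91 ± 0.74 (SE, adjusted p = 0.0159) for C1qa. It gave a log2 ratio of -2.86 ± 0.73 (SE, adjusted p = 0.0160) for C1qb and a log2 ratio of -2.72 ± 0.74 (SE, adjusted p = 0.0211) for C1qc, at a background of 14.6% of 9628 genes called lower. Without the expanded library of day 1 round 1, C1qa stood at a log2 ratio of -3.62 (adjusted p = 0.000921). The calls of the C1q genes were lost without either day 4 library (adjusted p = 0.0565 and 0.0559 for C1qa) and without the expanded library of day 2 round 2 (0.0559), where the log2 ratio was -2.59, and the number of members called was 2 in place of 7 without either day 4 library. Within pairs of a day and round, C1qa was lower in 5 of 5, with a mean log2 ratio of CPM + 1 of -2.95 in round 1 and -3.05 in round 2.

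Hashtags, antibodies with a DNA barcode that mark the cells of each mouse, gave a comparison per mouse in the 8 hashed libraries. The libraries of day 1 round 1 were not hashed, so the expanded library that lay within the control range is left out here. Day 1 was held by 2 control mice and 1 expanded mouse. C1qa ran from 728 to 2746 CPM with a median of 2072 in the macrophage or monocyte-like cells of 13 control mice, and from 7.57 to 895 CPM with a median of 141 in those of 12 expanded mice. The ranges overlap, since the lowest control mouse lay under the highest expanded mouse. On day 2 the expanded mice of round 1 had 14.3, 60.5 and 69.9 CPM as lowest, median and highest, against 2208, 2242 and 2662 CPM in the control mice. On day 4 the expanded mice had 173, 451 and 895 CPM (lowest, median and highest of 4), against 2045, 2147 and 2746 CPM in 4 control mice. The fit over mice, with day and round as a covariate, gave a log2 ratio of -3.60 ± 0.44 (SE, adjusted p = 2.68e-07) for C1qa, where 26.1% of 6753 genes were called lower. This fit takes mice as replicates, though the mice of an arm and round shared 1 tube. Arm and tube therefore cannot be told apart within a round, and the same holds for the other p-values per mouse below.

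The class held cells of different kinds in the 2 arms. Cluster 3, led by Cd209f and Cd209g and, after the C1q genes, by Folr2, Ccl24 and Ccl8, made up 88.2% ± 17.0 (SD, n = 5) of the class in control and 16.9% ± 23.1 (SD, n = 5) in expanded libraries. Cluster 2, led by Chil3, Ppbp, Arg1 and Ly6c2, made up 11.8% ± 17.0 (SD, n = 5) and 83.1% ± 23.1 (SD, n = 5). Cd209f and Folr2 are known from resident tissue macrophages, and Ly6c2 and Chil3 from monocytes that enter tissue. The expanded library of day 1 round 1 had 72 of its 126 cells of the class in cluster 3, more than any other expanded library by share.

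Within cluster 3 the C1q genes did not pass the test, in a fit that allowed libraries with as few as 5 cells. C1qa there was at 2351, 2025, 2512, 2551 and 2578 CPM in control and at 3136, 2479, 748, 1936 and 1401 CPM in expanded libraries, the latter from 72, 52, 6, 9 and 40 cells. The expanded libraries of day 1 lay above their controls and those of day 2 and day 4 below. The fit gave a log2 ratio of -0.54 ± 0.27 (SE, adjusted p = 0.186) for C1qa. It gave a log2 ratio of -0.53 ± 0.33 (SE, adjusted p = 0.287) for C1qb and a log2 ratio of -0.37 ± 0.29 (SE, adjusted p = 0.402) for C1qc. In cluster 2, C1qa was at 92.7, 150.1, 208, 389 and 886 CPM in control libraries, from 19, 17, 5, 175 and 46 cells, and at 657, 49.6, 40.6, 62.4 and 229 CPM in expanded libraries. Here the level was below that of cluster 3 in each of the 10 libraries, and no test was made since control libraries held too few cells.

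**Figure D3:**
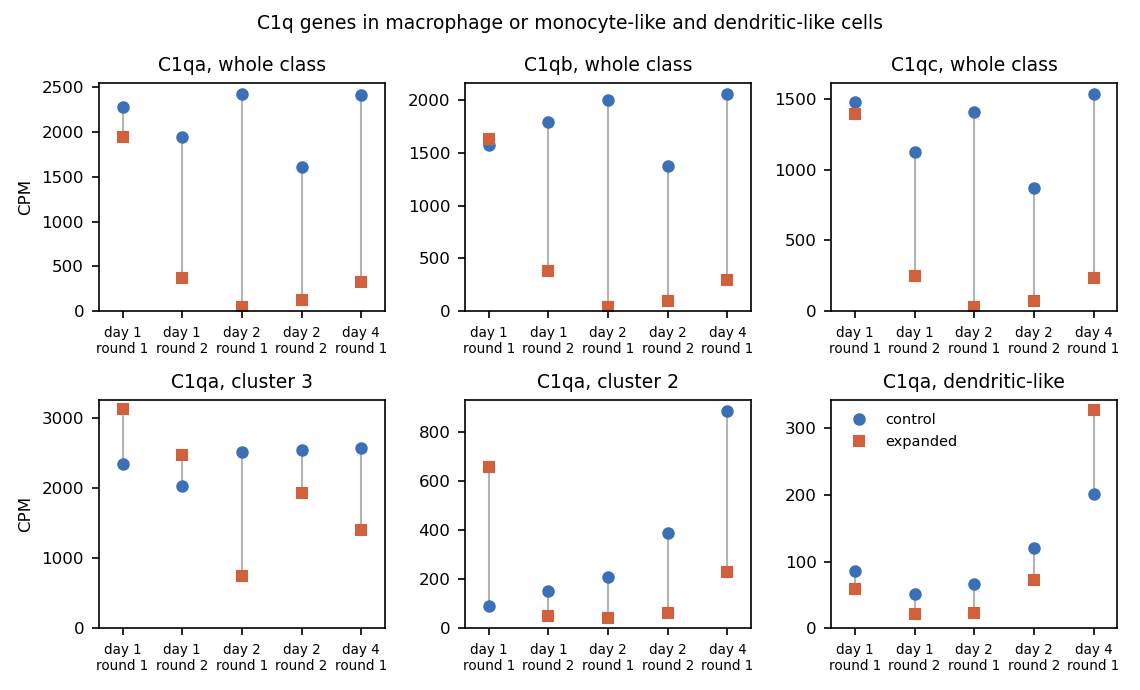
CPM of C1q genes by library (vertical axis) for the 5 pairs of a day and sequencing round (horizontal axis); circles are control and squares expanded libraries, and grey lines join a pair. In the whole macrophage or monocyte-like class 4 expanded libraries lie far below their controls, while in cluster 3 the expanded libraries of day 1 lie above theirs.

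Dendritic-like cells held lower C1q levels, which did not pass the test between the arms. C1qa was at 86.5, 51.6, 66.0, 120.1 and 202 CPM in control and at 58.5, 21.2, 22.6, 72.8 and 326 CPM in expanded libraries, and the model gave a log2 ratio of -0.74 ± 0.38 (SE, adjusted p = 0.210). With no filter on low counts, C1qa was called lower, at a like ratio with a smaller SE (log2 ratio -0.77 ± 0.17, SE, adjusted p = 0.000299). Expanded libraries were lower in 4 of 5 pairs, and the day 4 expanded library was the highest of the 10. An unnamed cluster, 34, led by Ccl22, Il12b, Il4i1 and Ccr7, which are known from migrating dendritic cells, held less C1qb and C1qc per C1qa than cluster 3. It had 1172 UMIs of C1qa, 133 of C1qb and 145 of C1qc, or 0.114 of C1qb per C1qa UMI. Cluster 3 had 37431 UMIs of C1qa, 30175 of C1qb and 23385 of C1qc, or 0.806 of C1qb per C1qa UMI. In libraries with at least 30 C1qa UMIs the ratio of C1qb to C1qa ran from 0.0204 to 0.180 in cluster 34 and from 0.557 to 1.07 in cluster 3, ranges that do not overlap. Cluster 34 was described after its values were seen, and its 143 control and 237 expanded cells gave too few per library for a test.

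C1q levels in other classes were low. In fibroblast-like cells C1qa was at 6.09, 4.03, 1.43, 3.58 and 2.63 CPM in control and 1.32, 0.590, 0.149, 0.866 and 1.98 CPM in expanded libraries, on the scale of T cell-like cells, which held 0 to 14.8 CPM in 9 of 10 libraries. The fall there passed the test with a log2 ratio of -2.27 ± 0.46 (SE, adjusted p = 0.00463), beside the lower level in macrophage or monocyte-like cells of the same libraries. Of the 6 macrophage genes followed (Lyz2, Cd68, Csf1r, Apoe, Ctsb and Cd14), 0 were called lower and 1 higher in fibroblast-like cells, with summed levels of 931 to 1488 CPM in control and 1057 to 1332 CPM in expanded libraries. Their sum is not particular to macrophages. In control libraries it was 9089 to 15139 CPM in basal keratinocyte-like cells, against 14933 to 25098 CPM in macrophage or monocyte-like cells. It therefore cannot show the level of free macrophage RNA. The part of free RNA in the C1q result of fibroblast-like cells was not tested. T cell-like cells of the expanded library of day 1 round 1, the tenth, held 163 CPM of C1qa.

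C4b, the classical and lectin pathway component cleaved after C1, fell in the fibroblast-like class as a whole. With doublets removed, it did not pass the test in the 2 clusters of the class where it was tested. In the class it was at 330.0, 234, 347, 346 and 554 CPM in control and at 202, 56.2, 93.4, 26.9 and 56.9 CPM in expanded libraries, with no overlap, and the model gave a log2 ratio of -2.33 ± 0.46 (SE, adjusted p = 0.00404). In fibroblast-like cells 7 of the 9 members were called lower and 1 higher, against 15.2% and 14.0% of all 12820 genes tested. The 7 include C1qa, C1qb and C1qc, whose levels in these cells were low. Schwann-like cells had C4b at 323 ± 132 CPM (SD, n = 4) in control and 416 ± 191 CPM (SD, n = 5) in expanded libraries. Melanocyte-like cells were at 146 ± 56.4 CPM (SD, n = 4) and 258 ± 112 CPM (SD, n = 4), and neither passed the test. Pericyte or smooth muscle-like cells had a log2 ratio of -1.31 ± 0.55 (SE, adjusted p = 0.108), called lower without the expanded library of day 1 round 1 (log2 ratio -2.05, adjusted p = 0.0325) and with the block of day and round (-1.47, 0.0378). In macrophage or monocyte-like cells C4b was at 219, 123, 196, 26.9 and 171 CPM in control and 77.2, 6.69, 2.92, 9.06 and 4.21 CPM in expanded libraries, with a log2 ratio of -3.70 ± 0.83 (SE, adjusted p = 0.00904). Without the expanded library of day 1 round 1 the log2 ratio was -4.79. Within cluster 3 C4b was called lower, with a log2 ratio of -1.89 ± 0.54 (SE, adjusted p = 0.0288), where 8.68% of 7223 genes were called lower. That call was lost without either day 4 library (0.0909 and 0.0828), among others. Cluster 2 held C4b at 16.9 ± 26.3 CPM in control and 5.32 ± 2.94 CPM (SD, n = 5 each) in expanded libraries. The part of the changed make-up of the class in its C4b fall was not tested. In macrophage or monocyte-like cells the 6 fibroblast genes followed (Col1a1, Col1a2, Col3a1, Dcn, Lum and Sparc) were called lower too, 6 of 6. Their summed levels were 390.1 to 5208 CPM in control and 34.8 to 589 CPM in expanded libraries, and their part in the C4b result was not tested. C4a, a close copy of C4b, matches 98.0% of 499 aligned bases at the end of the C4b transcript, so the split of reads between the pair is uncertain. C4a was at 0.588 ± 0.0703 CPM (SD, n = 5) in fibroblast-like cells of control libraries.

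The fibroblast-like class was made up of different clusters in the arms. Clusters 0, 10 and 20 together made up 58.6% ± 9.41 (SD, n = 5) of the class in control and 7.93% ± 6.82 (SD, n = 5) in expanded libraries, while cluster 6, led by Hapln1, Prok2, Chrm2 and Tnn, made up 8.46% ± 3.87 (SD, n = 5) and 40.1% ± 8.99 (SD, n = 5). In cluster 0, C4b was at 431, 388, 387, 598 and 1078 CPM in control libraries and at 535, 497 and 1219 CPM in the expanded libraries of day 1 round 1, day 1 round 2 and day 2 round 1, from 109, 25 and 12 cells, higher in 3 of 3 pairs. In cluster 10 it was at 231, 233, 341, 321 and 433 CPM in control and 251, 183 and 146 CPM in the same 3 expanded libraries, from 62, 24 and 7 cells, higher in 1 of 3 pairs. Cluster 20 had 677, 832, 986, 848 and 1061 CPM in control libraries and 1964 and 392 CPM in the expanded libraries of round 1 of days 1 and 2, from 6 and 12 cells. These clusters were not tested, since expanded libraries held too few cells. In cluster 5, also not tested, expanded libraries were higher in 4 of 5 pairs. C4b did not pass the test in cluster 6, with a log2 ratio of -0.56 ± 0.37 (SE, adjusted p = 0.381), or in cluster 19, with a log2 ratio of 0.91 ± 0.42 (SE, adjusted p = 0.185). With doublets kept, C4b was called lower in cluster 6 (log2 ratio -1.44 ± 0.40, SE, adjusted p = 0.0386). In the unnamed cluster 9, which carried fibroblast markers, it was called lower, with a log2 ratio of -1.28 ± 0.36 (SE, adjusted p = 0.0265), a call lost with DESeq2 (adjusted p = 0.0661) and without the day 4 pair (0.111), among others. Apart from cluster 6 with doublets kept, the fall of the class is not shown within clusters 0, 5, 6 and 19. The part of the changed make-up of the class in that fall was not tested.

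C3, the component on which all pathways meet, fell in the fibroblast-like class as a whole and did not pass the test in macrophage or monocyte-like cells, and the difference between the classes was not tested. Fibroblast-like cells had 71.7, 94.0, 233, 167 and 177 CPM in control and 45.5, 43.2, 55.4, 40.3 and 24.2 CPM in expanded libraries, without overlap, and the model gave a log2 ratio of -1.97 ± 0.27 (SE, adjusted p = 0.000703). In macrophage or monocyte-like cells C3 was at 21.2, 33.6, 28.6, 73.2 and 96.6 CPM in control and 49.3, 69.5, 69.1, 138 and 57.4 CPM in expanded libraries, higher in 4 of 5 pairs, with a log2 ratio of 0.60 ± 0.36 (SE, adjusted p = 0.239). With no filter on low counts it was called higher there, at a like ratio with a smaller SE (log2 ratio 0.65 ± 0.20, SE, adjusted p = 0.0103). Per mouse, C3 had a log2 ratio of 0.38 ± 0.27 (SE, adjusted p = 0.249) in that class. Cluster 2 held C3 at 111, 113, 146, 92.6 and 108 CPM in control and 92.9, 78.6, 69.5, 142 and 58.7 CPM in expanded libraries, lower in 4 of 5 pairs and so against the direction of the class. Cluster 3 held it at 18.3, 29.9, 24.2, 58.3 and 95.3 CPM in control and 9.12, 8.56, 12.3, 14.7 and 42.1 CPM in expanded libraries. Within cluster 3 C3 fell, with a log2 ratio of -1.49 ± 0.33 (SE, adjusted p = 0.00971) (8.68% of 7223 genes called lower). C3 also fell in lymphatic endothelial-like cells, with a log2 ratio of -1.15 ± 0.32 (SE, adjusted p = 0.0272), and in dendritic-like cells, with a log2 ratio of -1.37 ± 0.35 (SE, adjusted p = 0.0310) (6.07% and 7.01% of all genes called lower). Of these, the first call was lost with DESeq2 (adjusted p = 0.0538) and both were lost without the day 4 pair (0.108 and 0.0565), among others. The 6 fibroblast genes followed were called lower beside these C3 calls, 6 of 6 in cluster 3 and in dendritic-like cells and 5 of 6 in lymphatic endothelial-like cells, and their part in them was not tested.

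C3 was also followed in single clusters. Cluster 20, led by Sult1e1, Gpx3, Lgi2 and Agt, held C3 at 583, 865, 1283, 876 and 1010.2 CPM in control libraries, the highest of the class, and at 1179 and 811 CPM in the expanded libraries of round 1 of days 1 and 2, and it had 709 cells in control but 22 in expanded libraries. In cluster 0, C3 was at 51.6, 96.6, 113, 153 and 253 CPM in control and 73.7, 133 and 227 CPM in 3 expanded libraries, higher in 3 of 3 pairs. In cluster 10 it was at 69.1, 107, 108, 117 and 155 CPM in control and 97.3, 199.8 and 31.3 CPM in 3 expanded libraries, higher in 2 of 3 pairs. These 3 clusters, without a test, do not show the fall seen in the class as a whole. In cluster 28, led by Smim41, Apod, Ebf2 and Il33, C3 rose, with a log2 ratio of 1.25 ± 0.34 (SE, adjusted p = 0.0352), a call lost with the block of day and round (adjusted p = 0.0721) and without any 1 of 5 libraries. In cluster 9, which carried 8 of 8 fibroblast markers but stayed unnamed because the innate lymphoid marker Il1rl1 stood among its leading genes Il19, Tnc, Timp1 and Saa3, C3 was at 211, 328, 698, 410.0 and 559.7 CPM in control and 95.8, 108, 71.6, 13.1 and 66.4 CPM in expanded libraries. The arms did not overlap there, and the fit, which leaves out the control library of day 2 round 1 with its 19 cells, gave a log2 ratio of -2.48 ± 0.40 (SE, adjusted p = 0.00163), at a background of 11.6% of 10416 genes called lower. The fits of clusters 19 and 28 hold 4 expanded libraries, since 1 had under 20 cells. In clusters 6 and 19 C3 did not pass the test, with a log2 ratio of -0.81 ± 0.41 (SE, adjusted p = 0.250) and a log2 ratio of 0.019 ± 0.59 (SE, adjusted p = 0.991). The difference in C3 between clusters was not tested.

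**Figure D4:**
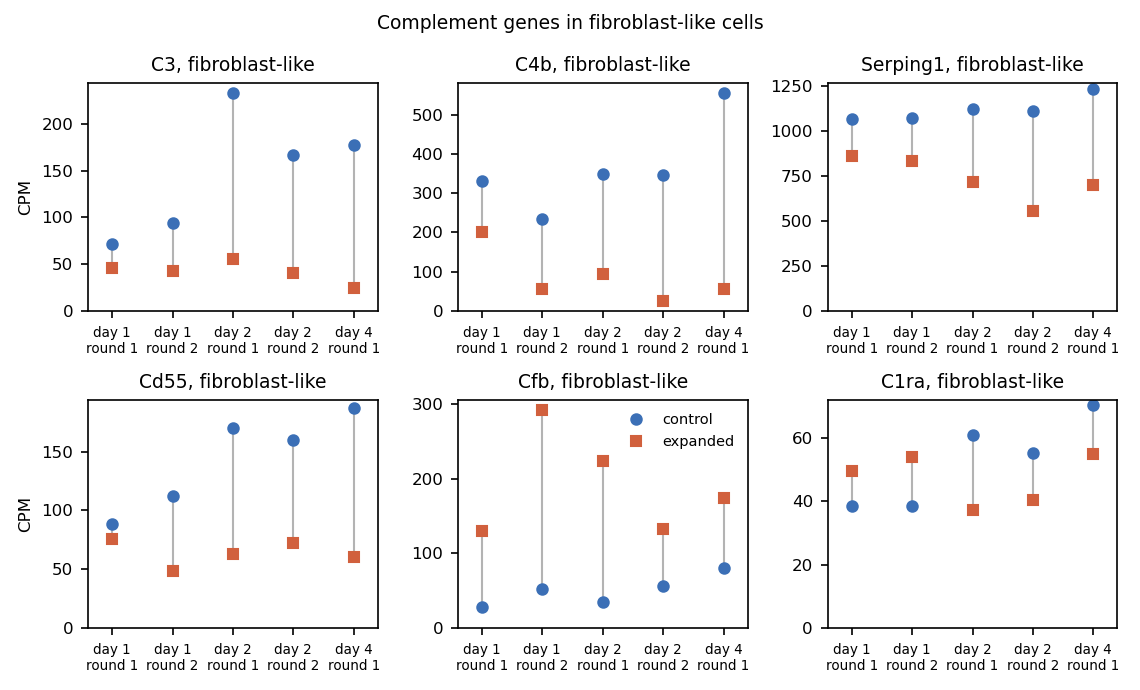
CPM of 6 complement genes in fibroblast-like cells (vertical axes) for the 5 pairs of a day and sequencing round (horizontal axes); circles are control and squares expanded libraries, and grey lines join a pair. C3, C4b, Serping1 and Cd55 are lower and Cfb is higher in the expanded library of each pair, and C1ra goes both ways.

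Cfb rose in fibroblast-like cells, while 7 of the other 8 members fell there, among them the C1q genes at the low levels described above. Cfb was at 28.4, 51.9, 34.9, 56.1 and 80.7 CPM in control and at 129.6, 292, 223, 133 and 174 CPM in expanded libraries, higher in 5 of 5 pairs and without overlap. The model gave a log2 ratio of 1.74 ± 0.28 (SE, adjusted p = 0.00152). Cfb rose in cluster 6 too, with a log2 ratio of 1.36 ± 0.26 (SE, adjusted p = 0.00582). Its levels there went from 125, 152, 57.2, 139 and 190.2 CPM in control to 389, 611, 348, 193 and 254 CPM in expanded libraries, at a background of 3.77% of 9021 genes called higher. It also passed in cluster 28, with a log2 ratio of 1.91 ± 0.29 (SE, adjusted p = 0.00177) (4.41% of 4511 genes called higher). Cluster 19 had a log2 ratio of 0.93 ± 0.29 (SE, adjusted p = 0.0542), cluster 11, led by Cck, Fmod, Kera and Tnmd, had a log2 ratio of 0.27 ± 0.17 (SE, adjusted p = 0.433), and cluster 9 had a log2 ratio of 0.075 ± 0.19 (SE, adjusted p = 0.823).

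Outside fibroblasts, Cfb rose in lymphatic endothelial-like cells, from 21.2, 23.1, 9.55, 17.1 and 38.1 CPM to 63.0, 57.2, 46.0, 65.4 and 99.0 CPM. The arms did not overlap, the model gave a log2 ratio of 1.45 ± 0.22 (SE, adjusted p = 0.000881), and 5.96% of 6380 genes were called higher. In blood endothelial-like cells Cfb was at 56.8 ± 17.7 CPM (SD, n = 5) in control and 57.0 ± 5.68 CPM (SD, n = 5) in expanded libraries, with a log2 ratio of -0.12 ± 0.16 (SE, adjusted p = 0.671). Macrophage or monocyte-like cells had Cfb at 84.8, 63.0, 82.0, 73.8 and 122 CPM in control and 54.0, 5.94, 22.3, 98.0 and 41.9 CPM in expanded libraries, with a log2 ratio of -1.14 ± 0.51 (SE, adjusted p = 0.119). With the block of day and round it was called lower there (log2 ratio -1.40, adjusted p = 0.0366), as it was per mouse, with a log2 ratio of -1.23 ± 0.36 (SE, adjusted p = 0.00574), and within cluster 3, with a log2 ratio of -1.33 ± 0.33 (SE, adjusted p = 0.0163). The call in cluster 3 was lost without the control library of day 4 (log2 ratio -1.01, adjusted p = 0.0669) and without the expanded one (-1.02, 0.0637), and the log2 ratio was -2.18 without the expanded library of day 1 round 1. Schwann-like cells held 0 to 11.7 CPM of Cfb in 4 control libraries and 2.40 to 121 CPM in 5 expanded libraries, too few UMIs for the filter of the test.

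**Figure D5:**
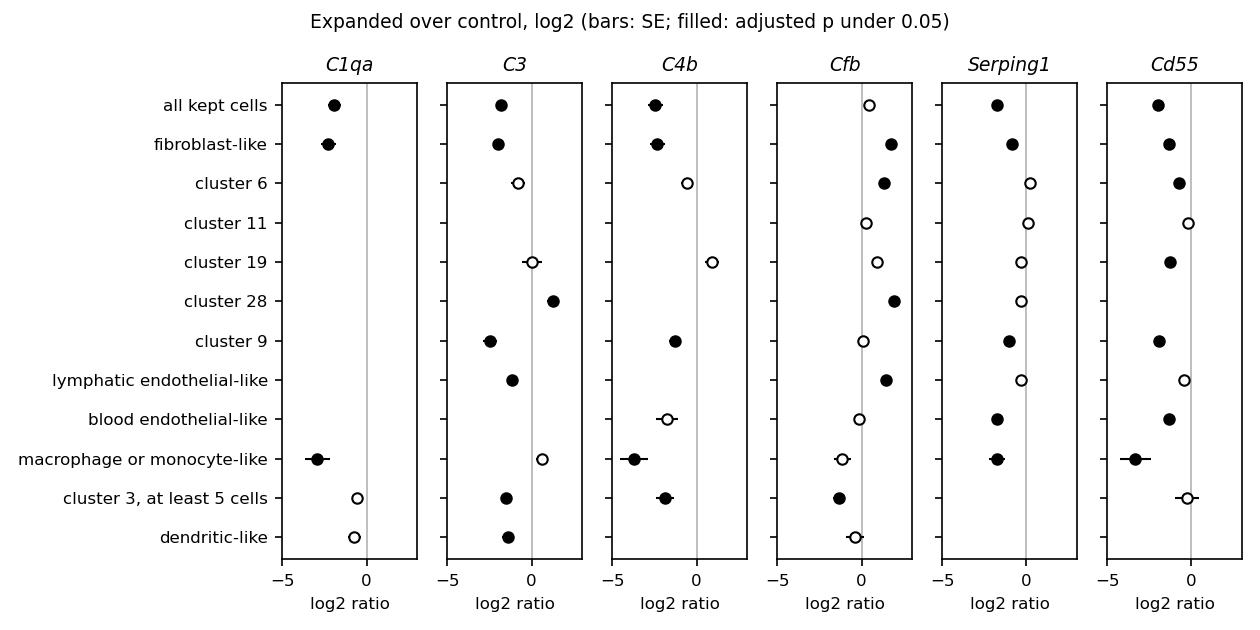
Log2 ratio of expanded over control (horizontal axis) of 6 members in all kept cells, in named classes and in single clusters (rows); points are fitted values, bars are SE, and filled points had an adjusted p under 0.05. Cfb is to the right of 0 in fibroblast-like and lymphatic endothelial-like cells, where C3 is to the left; a missing point was not tested.

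C1ra, the protease of C1, did not pass the test in fibroblast-like cells, its main source. It was at 38.5, 38.5, 60.9, 55.1 and 70.1 CPM in control and 49.5, 53.8, 37.1, 40.3 and 54.7 CPM in expanded libraries, higher in both pairs of day 1 and lower in the pairs of day 2 and day 4, and the model gave a log2 ratio of -0.37 ± 0.16 (SE, adjusted p = 0.0980). In cluster 9 it fell, with a log2 ratio of -1.04 ± 0.22 (SE, adjusted p = 0.00611). It was called lower in macrophage or monocyte-like cells, at 7.36 ± 2.24 CPM (SD, n = 5) in control and 2.20 ± 2.15 CPM (SD, n = 5) in expanded libraries, against 0.981 ± 1.55 CPM (SD, n = 10) in T cell-like cells. The 6 fibroblast genes were called lower in macrophage or monocyte-like cells, 6 of 6. Their part in the C1ra result, and that of the changed make-up of the class, were not tested. C1ra had too few UMIs for the test within cluster 3. C1rb, its neighbouring copy, shares 97.9% of 2431 aligned bases with the C1ra transcript, and 181 of the last 500 bases of C1ra align to it, at 98.9% identity. C1rb stood at 28.5 ± 5.48 CPM in control and 23.9 ± 4.95 CPM (SD, n = 5 each) in expanded fibroblast-like cells, and the split of reads between these copies is uncertain, as it is for C4b and C4a.

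Serping1, the C1 inhibitor, fell in fibroblast-like cells. It was at 1067, 1074, 1125, 1111 and 1233 CPM in control and 859.8, 832, 719.8, 555 and 699 CPM in expanded libraries, without overlap, and the model gave a log2 ratio of -0.87 ± 0.13 (SE, adjusted p = 0.000804). Within clusters the call was made in cluster 9, with a log2 ratio of -1.06 ± 0.17 (SE, adjusted p = 0.00135), but not in clusters 6, 11, 19 and 28, whose log2 ratios were 0.20 ± 0.16, 0.070 ± 0.14, -0.34 ± 0.13 and -0.35 ± 0.21 (SE). In cluster 19 it was called with the block of day and round (log2 ratio -0.40, adjusted p = 0.0459). Pericyte or smooth muscle-like cells were at 508 ± 36.3 CPM (SD, n = 5) in control and 627 ± 254 CPM (SD, n = 5) in expanded libraries, and lymphatic endothelial-like cells at 240.3 ± 66.6 CPM (SD, n = 5) and 215 ± 85.6 CPM (SD, n = 5), and neither passed the test.

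Serping1 was also called lower in classes where its level was low. Basal keratinocyte-like cells had a log2 ratio of -2.53 ± 0.52 (SE, adjusted p = 0.00446), where 12.7% of 8105 genes were called lower. Upper follicle keratinocyte-like cells had a log2 ratio of -4.38 ± 0.41 (SE, adjusted p = 0.000397), against 1.58% of 7134 genes. Blood endothelial-like cells had a log2 ratio of -1.73 ± 0.32 (SE, adjusted p = 0.00714), against 6.64% of 9475 genes. Macrophage or monocyte-like cells had a log2 ratio of -1.75 ± 0.50 (SE, adjusted p = 0.0253). Serping1 had too few UMIs for the test within cluster 3, and the part of the changed make-up of that class was not tested. In basal keratinocyte-like cells it was at 51.2, 32.2, 0, 19.4 and 11.1 CPM in control and 5.75, 2.80, 0.722, 5.12 and 12.6 CPM in expanded libraries, a scale like the 11.8 ± 8.28 CPM (SD, n = 10) of T cell-like cells. The 6 fibroblast genes were called lower, 6 of 6, in basal keratinocyte-like, upper follicle keratinocyte-like and macrophage or monocyte-like cells, and 2 of 6 in blood endothelial-like cells. In basal keratinocyte-like cells their summed level ran from 471 to 8414 CPM in control and from 43.5 to 312 CPM in expanded libraries, and their part in the Serping1 results was not tested. The call in upper follicle keratinocyte-like cells was lost with doublets kept (adjusted p = 0.0533).

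Cd55, the membrane inhibitor of convertases, was called lower in 5 named classes, as was Serping1. In fibroblast-like cells it was at 88.2, 112, 169.6, 160.1 and 187 CPM in control and 75.8, 48.4, 63.2, 72.3 and 60.4 CPM in expanded libraries, without overlap, with a log2 ratio of -1.36 ± 0.16 (SE, adjusted p = 0.000411). It was also called lower in dermal papilla-like cells, with a log2 ratio of -1.39 ± 0.27 (SE, adjusted p = 0.00819) (1.40% of 7579 genes). Blood endothelial-like cells had a log2 ratio of -1.31 ± 0.26 (SE, adjusted p = 0.00870) and basal keratinocyte-like cells a log2 ratio of -1.09 ± 0.34 (SE, adjusted p = 0.0323). Macrophage or monocyte-like cells had a log2 ratio of -3.33 ± 0.91 (SE, adjusted p = 0.0218), and -4.31 without the expanded library of day 1 round 1. Within cluster 3 Cd55 did not pass the test, with a log2 ratio of -0.25 ± 0.71 (SE, adjusted p = 0.856). Cluster 2 held Cd55 at 2.21 ± 2.54 CPM in control and 0.413 ± 0.323 CPM (SD, n = 5 each) in expanded libraries. The part of the changed make-up of the class in its Cd55 fall was not tested. Beside the Cd55 calls of these classes the 6 fibroblast genes were called lower, 6 of 6 in macrophage or monocyte-like and basal keratinocyte-like cells, 5 of 6 in dermal papilla-like cells and 2 of 6 in blood endothelial-like cells, and their part in the Cd55 results was not tested. In control libraries these genes summed to 4873 to 22156 CPM in dermal papilla-like cells, against 287 to 4889 CPM in dendritic-like cells. Their fall in dermal papilla-like cells does not tell free RNA from the cells' own RNA. Dermal papilla-like cells had Cd55 at 26.2, 60.7, 48.5 and 37.5 CPM in control and 5.29, 18.5, 18.7 and 17.1 CPM in expanded libraries, from day 1 round 2 on, without overlap. The Cd55 call there was lost without the control library of day 4 (adjusted p = 0.0537). The macrophage or monocyte-like calls of Cd55 and Serping1 were each lost without any 1 of 5 libraries and without the day 4 pair (adjusted p = 0.0705 and 0.0881). Within fibroblast clusters Cd55 fell in cluster 6, with a log2 ratio of -0.77 ± 0.14 (SE, adjusted p = 0.00522) (5.13% of genes called lower). It fell in cluster 19, with a log2 ratio of -1.29 ± 0.23 (SE, adjusted p = 0.00250) (5.49%). In cluster 9 it fell with a log2 ratio of -1.91 ± 0.21 (SE, adjusted p = 0.000126), and cluster 11 had a log2 ratio of -0.23 ± 0.14 (SE, adjusted p = 0.406).

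Mast-like cells, where Cd55 was highest, held 754 ± 229 CPM (SD, n = 5) in control and 846 ± 404 CPM (SD, n = 3) in expanded libraries, and no test was made with 3 expanded libraries. Lymphatic endothelial-like cells had a log2 ratio of -0.43 ± 0.20 (SE, adjusted p = 0.164). Cd55b, the neighbouring copy, has no match to the last 500 bases of the Cd55 transcript, the end that a 3′ kit reads, and was at 0.361 ± 0.0858 CPM (SD, n = 5) in fibroblast-like cells of control libraries. The antisense gene Gm16083, which overlaps the start of Cd55, held 32 UMIs in all kept cells. In basal keratinocyte-like cells the Cd55 call was lost without any 1 of 5 libraries and without the day 4 pair (log2 ratio -0.94, adjusted p = 0.112).

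In 5 classes and in cluster 11 of the fibroblasts, 0 members were called by edgeR and 0 by DESeq2. These were Schwann-like cells (3 members tested, 1 with an unadjusted p under 0.05, 0.258% of all genes called), T cell-like cells (1 tested, 1 under 0.05, 0.212%) and hair follicle keratinocyte-like cells (2 tested, 0 under 0.05, 1.90%). The others were melanocyte-like cells (1 tested, 1 under 0.05, 1.38%), pericyte or smooth muscle-like cells (3 tested, 1 under 0.05, 19.2%) and cluster 11 (4 tested, 0 under 0.05, 1.75%). These percentages are of genes called at an adjusted p under 0.05. The share of all genes under an unadjusted p of 0.05 was not counted.

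The response was also tested for dependence on the day, by the arm by day terms of edgeR's quasi-likelihood fit in classes with all 10 libraries. The count of members that passed after adjustment was 0 in each of these classes and clusters, where 0 or 1 of all genes tested did. An unadjusted p under 0.05 was found for 3 members in macrophage or monocyte-like cells (C1qa, C1qb and C1qc), 2 in fibroblast-like cells (C3 and C1ra) and 2 in cluster 6 (C4b and C1ra). Cfb in all kept cells and Serping1 in basal keratinocyte-like and in pericyte or smooth muscle-like cells were under it too, and no other tool was run for these terms. The share of all genes under this unadjusted p was not counted. Day 4 entered these terms with 1 pair.

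Other genes of the complement system were counted by list, without the members. In fibroblast-like cells, 1 of 4 tested classical pathway genes was called lower and 0 higher, the terminal pathway had 2 of 2 lower, and of 2 tested lectin pathway genes 1 was higher and 1 lower. Membrane regulators had 2 of 4 lower, soluble regulators 1 of 3 lower, receptors 1 of 3 higher and the alternative pathway 0 of 1 called. Of all genes tested there, 15.2% were called lower and 14.0% higher, and with so few genes a list these counts are not set against those shares. C7, a part of the membrane attack complex, had a log2 ratio of -3.47 ± 0.38 (SE, adjusted p = 0.000285), from 108 ± 51.0 to 9.89 ± 5.68 CPM (SD, n = 5 each). Masp1, a protease of the lectin pathway, rose with a log2 ratio of 1.20 ± 0.19 (SE, adjusted p = 0.00117), from 124 ± 40.9 to 345 ± 91.3 CPM. C2, the partner of C4 in the classical convertase, was lower with -0.70 ± 0.22 (SE, adjusted p = 0.0323), and so was Colec12, a scavenger receptor with a collectin domain, with -0.72 ± 0.16 (SE, adjusted p = 0.00654). Within clusters, 0 of 2 tested lectin pathway genes were called higher in clusters 6, 9 and 11 and 1 of 2 in cluster 19. Called lower was 1 of 2 in clusters 6, 9 and 19 and 0 of 2 in cluster 11. The terminal pathway had 0 of 1 called in cluster 9. These counts too are not set against shares of all genes. The part of the changed make-up of the class in its values was not tested.

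In macrophage or monocyte-like cells, 2 of 8 tested receptors were lower and 1 higher, and of 2 tested lectin pathway genes 2 were lower. The classical pathway had 2 of 2 lower, the terminal pathway 1 of 1 lower, and membrane regulators 0 of 2 and the alternative pathway 0 of 1 called. Of all genes tested there, 14.6% were called lower and 12.8% higher. Itgam, a chain of complement receptor CR3, rose with a log2 ratio of 1.14 ± 0.21 (SE, adjusted p = 0.00435), from 232 ± 54.0 to 561 ± 184 CPM (SD, n = 5 each). The receptors of the cleaved fragments C3a and C5a were lower: C3ar1 at -0.91 ± 0.22 (SE, adjusted p = 0.0137) and C5ar1 at -1.26 ± 0.37 (SE, adjusted p = 0.0290). Within cluster 3, 1 of 6 tested receptors was called higher and 2 lower, where 8.68% of 7223 genes were called lower. The part of the changed make-up of the class in these receptor values was not tested. C1qbp, a mitochondrial protein named for its binding of C1q, was called higher in fibroblast-like, basal keratinocyte-like, blood endothelial-like, lymphatic endothelial-like and pericyte or smooth muscle-like cells, with log2 ratios from 0.58 to 1.09. In pericyte or smooth muscle-like cells C1s1, the partner protease of C1r, fell with -0.76 ± 0.15 (SE, adjusted p = 0.00544), where 10.7% of 7313 genes were called lower.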

How the data were processed

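Counts of UMIs per gene and cell were deposited by the authors as matrices of 10 mRNA libraries, made with Cell Ranger 6.1.2 on the mouse build mm10, per the submitters' processing notes. The deposited files of the hashing samples are lists of hashtags, and hashtag counts were read from the matrices of 8 libraries. The titles of a pair of day 1 control samples were crossed in the labels, and their description fields were used. From the counts, barcodes under 200 genes, under 500 UMIs or over 10% of mitochondrial UMIs were dropped, doublets by Scrublet or by hashtags (1700) were removed, and cells were clustered with scanpy 1.11.5 (2000 variable genes without complement genes, 30 components, 15 neighbours, Leiden resolution 1). Clusters were named from marker lists, with details of the naming rule set while clusters were examined, so class names are rebuilt and not the authors' own.

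UMIs were summed per class and library with at least 20 cells and tested with edgeR 4.0.16 (quasi-likelihood test, filterByExpr, TMM, day as a covariate, Benjamini-Hochberg over all genes of the class, called under 0.05) where each arm had at least 4 libraries. Per mouse, cells were assigned with HTODemux (Seurat 5.3.0, quantile 0.99), and mice with at least 20 cells were compared. The sequencing round named in the labels is shared by a control and an expanded library, so it pairs them; deviations from group means correlated with r = 0.403 and 0.089 (fibroblast-like, day 1 and day 2), 0.26 and 0.22 (macrophage or monocyte-like) and 0.511 and 0.286 (all cells). The alternatives were that block, DESeq2 1.42.0, its size factors in edgeR, no filter, cells thinned to 2000 UMIs, at least 50 cells, doublets kept, a mitochondrial share of at most 5%, another hashtag rule, and libraries left out. Cluster 9 added to the fibroblasts, and cluster 3 with at least 5 cells, were added after the data were seen. The tests were checked on simulated counts. The rule for named genes was the 9 members in each class, other complement genes by list with an adjusted p under 0.05 and a mean over 20 CPM, and the 3 genes of most like pattern per member among genes with at least 50 CPM in a class. A gene that this rule covers is not reported here. The members and lists were chosen with earlier results of these data known. Suprabasal keratinocyte-like, mast-like, neutrophil-like, sebaceous gland-like and skeletal muscle-like cells had too few libraries for a test. Copies of a transcript were compared with blastn 2.17.0.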

Additional observations from a re-analysis of the deposited data

Results flagged for a closer look

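Of 81 groups of 4 or 5 libraries of an arm, with a mean of at least 20 CPM of a member, tested for a library far from the rest, 12 were marked, and chance marks about 1 in 20 groups; the genes and classes share libraries and are not independent. In macrophage or monocyte-like cells, the expanded library of day 1 round 1 was far above the other 4 expanded libraries, with 1948 CPM of C1qa against 44.7 to 366 CPM, 1633 CPM of C1qb against 43.0 to 383 CPM, 1395 CPM of C1qc against 32.2 to 249 CPM and 77.2 CPM of C4b against 2.92 to 9.06 CPM. The same library was highest of its arm in all kept cells, with 112 CPM of C4b against 28.8 to 46.7 CPM and 405 CPM of Serping1 against 155 to 211 CPM. In dendritic-like cells, the expanded library of day 4 stood apart, with 326 CPM of C1qa against 21.2 to 72.8 CPM, 226 CPM of C1qb against 4.89 to 56.2 CPM and 173 CPM of C1qc against 9.40 to 51.9 CPM. That library also had 1074 CPM of Serping1 in pericyte or smooth muscle-like cells, against 437 to 562 CPM. The expanded library of day 2 round 2 had 138 CPM of C3 in macrophage or monocyte-like cells, against 49.3 to 69.5 CPM. The control library of day 4 had 63.4 CPM of Cfb in all kept cells, against 29.9 to 39.1 CPM in the other control libraries.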

How the results depend on the processing

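Of the values for single genes under an alternative that left out no single library, 632 kept their direction and their side of the threshold, 16 lost the call, 19 gained it and 11 turned sign; with 1 library left out, the numbers were 707, 55, 7 and 25. The causes were not tested. With no filter on low counts, the number of members called moved from 0 to 5 in Schwann-like, from 0 to 3 in T cell-like, from 2 to 5 in basal keratinocyte-like, from 1 to 7 in dendritic-like, from 1 to 4 in dermal papilla-like, from 0 to 1 in hair follicle keratinocyte-like, from 2 to 5 in lymphatic endothelial-like, from 0 to 3 in pericyte or smooth muscle-like, from 1 to 4 in upper follicle keratinocyte-like, from 2 to 4 in cluster 6, from 0 to 2 in cluster 11 and from 1 to 3 in cluster 19. A gain could come with a smaller SE at a like ratio: C1qa in dendritic-like cells had a log2 ratio of -0.74 ± 0.38 (SE) with the filter and -0.77 ± 0.17 (SE) without it. The share of all genes called under each setting is not set beside these counts or those that follow. Smaller changes in the number of members called under a setting are not listed, such as the gain of C4b in cluster 6 with doublets kept. With doublets kept, the number of members called moved from 0 to 2 in T cell-like, from 1 to 2 in dendritic-like and from 1 to 0 in upper follicle keratinocyte-like. With DESeq2, it moved from 2 to 4 in basal keratinocyte-like, from 1 to 4 in dendritic-like, from 2 to 1 in lymphatic endothelial-like, from 1 to 3 in upper follicle keratinocyte-like and from 5 to 8 in macrophage or monocyte-like cells per mouse. With cells thinned to 2000 UMIs, it moved from 2 to 0 in basal keratinocyte-like, from 2 to 1 in blood endothelial-like, from 1 to 0 in dermal papilla-like, from 8 to 5 in fibroblast-like, from 2 to 0 in lymphatic endothelial-like, from 1 to 0 in upper follicle keratinocyte-like, from 2 to 1 in cluster 6 and from 2 to 0 in cluster 28. With at least 50 cells a library, it moved from 2 to 1 in basal keratinocyte-like. Without both libraries of day 4, it moved from 2 to 0 in basal keratinocyte-like, from 1 to 0 in dendritic-like, from 1 to 0 in dermal papilla-like, from 2 to 1 in lymphatic endothelial-like and from 7 to 2 in macrophage or monocyte-like. With the block of day and round, it moved from 0 to 1 in pericyte or smooth muscle-like, from 1 to 2 in cluster 19 and from 2 to 1 in cluster 28. With a mitochondrial share of at most 5%, it moved from 1 to 2 in cluster 19. With each library left out in turn, the number of members called ran from 0 to 0 in Schwann-like, T cell-like, hair follicle keratinocyte-like, melanocyte-like and cluster 11, from 0 to 1 in dendritic-like, dermal papilla-like and pericyte or smooth muscle-like, from 1 to 1 in upper follicle keratinocyte-like, from 1 to 2 in basal keratinocyte-like and lymphatic endothelial-like, from 1 to 3 in cluster 19, cluster 28 and cluster 3, from 2 to 2 in cluster 6, from 2 to 3 in blood endothelial-like, from 2 to 7 in macrophage or monocyte-like, from 4 to 5 in cluster 9, from 8 to 9 in fibroblast-like and all kept. Values that turned sign were not called on either side and moved from 0.11 to -0.050 (replicate block), -0.084 (thinned to 2000 UMIs), -0.019 (mitochondrial share at most 5%) and -0.26 (at least 50 cells) for C4b in Schwann-like cells, from -0.26 to 0.14 (without both libraries of day 4) for Serping1 in hair follicle keratinocyte-like cells, from -0.31 to 0.065 (thinned to 2000 UMIs) for Serping1 in lymphatic endothelial-like cells, from 0.11 to -0.063 (mitochondrial share at most 5%) and -0.10 (without both libraries of day 4) for C1ra in pericyte or smooth muscle-like cells, from 0.14 to -0.057 (without both libraries of day 4) for Serping1 in pericyte or smooth muscle-like cells, from 0.028 to -0.071 (replicate block) and -0.096 (without both libraries of day 4) for C1ra in cluster 19. With each library left out in turn, the log2 ratios that turned sign ran from -0.13 to 0.48 for C4b in Schwann-like cells, from -0.22 to 0.016 for Cfb in blood endothelial-like cells, from -0.64 to 0.15 for Serping1 in hair follicle keratinocyte-like cells, from -0.10 to 0.28 for C1ra in pericyte or smooth muscle-like cells, from -0.057 to 0.22 for Serping1 in pericyte or smooth muscle-like cells, from -0.11 to 0.35 for C1ra in cluster 6, from -0.0077 to 0.21 for Serping1 in cluster 11, from -0.086 to 0.16 for C1ra in cluster 19, from -0.24 to 0.43 for C1ra in cluster 28, from -0.019 to 0.21 for Cfb in cluster 9, from -1.31 to 0.48 for Cd55 in cluster 3, at least 5 cells. With the block of day and round, the number of all genes called moved from 17 to 86 in Schwann-like, from 16 to 67 in T cell-like, from 188 to 646 in hair follicle keratinocyte-like and from 142 to 459 in cluster 11. With cells thinned to 2000 UMIs, the number of all genes called moved from 3743 to 2052 in fibroblast-like, from 767 to 251 in lymphatic endothelial-like, from 2641 to 1555 in macrophage or monocyte-like, from 4348 to 2423 in all kept cells, from 803 to 372 in cluster 6 and from 2117 to 698 in cluster 9. Without both libraries of day 4, the number of all genes called moved from 767 to 219 in lymphatic endothelial-like, from 2641 to 1573 in macrophage or monocyte-like, from 4348 to 2136 in all kept cells and from 2117 to 1235 in cluster 9. The block of day and round, which pairs the libraries, called Cfb lower in macrophage or monocyte-like cells, C4b lower in pericyte or smooth muscle-like cells and Serping1 lower in cluster 19, lost C3 in cluster 28, and changed no other call of a member. Members with few UMIs in a class did not pass the filter and were not tested there, which is also why thinning left fewer members to test.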
